A study of Oryza sativa with 4 samples.

Results

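LOG-like genes encode relatives of LONELY GUY (LOG), the rice enzyme that releases active cytokinin from its nucleotide precursor. They were chosen here by name, as every gene with LOGL and a number among its symbols or synonyms in the reference gene table, and LOG itself was kept apart. The table held 9 such genes, of which 7 had a probe set that the array annotation gave to 1 gene: LOGL1, LOGL3, LOGL5, LOGL6, LOGL7, LOGL9 and LOGL10. LOGL4 and LOGL8 were not analysed here. LOGL7 had 2 probe sets and the others 1 each, which made 8 of the 57381 probe sets and 7 of the 17905 genes of the array.

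The samples were panicle primordia at the stage the labels number 0, the young inflorescence from which branches and spikelets form, of the Indica rice cultivars Pusa 1266 and Pusa Basmati 1. Each cultivar was measured on 2 Affymetrix arrays, described as biological replications, and no treatment, transgene or mutant is named. The labels disagree on grain number: the characteristic calls Pusa 1266 high and Pusa Basmati 1 low, and the titles call both low, so the groups are called by cultivar only. Each group is 1 cultivar, so grain number cannot be told apart from any other difference between the cultivars, and in whole primordia fewer cells of a type and less RNA per cell cannot be told apart either.

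Cytokinin is a hormone that keeps meristem cells dividing. Isopentenyltransferases first make it as a nucleotide, which is inactive. LOG removes the ribose phosphate in 1 step and so sets free the active base, and rice plants that lack LOG lose panicle meristems early and bear few branches and flowers. The active base binds histidine kinase receptors, which pass a phosphate by way of carrier proteins to type B response regulators. These switch on target genes, among them the type A response regulators that dampen the response, while cytokinin oxidases (CKX) destroy the hormone. The LOG-like proteins are placed at the activating step by their resemblance to LOG, and no separate role is given here to most of them.

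The arrays were not on 1 level. Pusa 1266 had median signals of 6.8 and 7.8 and Pusa Basmati 1 of 11.5 and 11.3, and after 2% was trimmed from each end the mean signals of the same 4 arrays were 78.0, 89.1, 138 and 155. Differences are therefore given as Pusa 1266 minus Pusa Basmati 1 after a constant of 16 was added to each signal, log2 taken and the arrays quantile normalized, and values with other scalings stand beside them. The ratio of 3' to 5' signal, a sign of RNA integrity, separated the cultivars without overlap for 5 of 6 control designs, with Pusa 1266 on the higher side, for example 20.3 and 18.5 against 7.55 and 8.50 for the brighter GAPDH design. Among 5 markers of the young panicle meristem, RFL, LAX1 and OSH1 rose in Pusa 1266 and MADS34 fell, where 34.7% of all 15180 tested genes were called higher and 26.3% lower, and FZP had no signal of 16 or more on any array. Their summed normalized signals were 5040 and 5090 in Pusa 1266 against 2320 and 2510 in Pusa Basmati 1. Of 5 tested genes of green tissue 4 fell and 1 did not pass, with summed normalized signals of 1290 and 1480 in Pusa 1266 against 2960 and 2970 in Pusa Basmati 1, and RBCS1 had no signal of 16 or more. Of 11 later floral genes 3 rose, 0 fell and 8 did not pass, and those 3 lay below 0 with the deposited scaling. The floral genes summed to 5550 on both Pusa 1266 arrays and to 5110 and 5200 on the others in normalized signal, and in deposited signal the order was the opposite, with 3970 and 4510 against 6320 and 7240. The part of these differences in the results on the LOG-like genes was not tested.

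The LOG-like genes did not move as a block between the cultivars. LOGL6 was 2.44-fold and LOGL10 1.39-fold higher in Pusa 1266, LOGL7 was 2.26-fold and LOGL5 2.04-fold lower, and LOGL1, LOGL3 and LOGL9 did not pass the test (n = 2 per cultivar throughout). The direction for LOGL10 turned with the scaling between arrays, and the folds of LOGL5 and LOGL6 rested on signals near or below the added constant. The size of the LOGL7 fall moved with this constant as well. The test was limma with Benjamini-Hochberg adjustment over all 30029 probe sets tested and a threshold of 0.05. A probe set was tested if it exceeded the median of its array on at least 2 of the 4 arrays, which 7 of the 8 LOG-like probe sets did, 5 of them on all 4 arrays. LOGL5 passed that filter through the Pusa Basmati 1 arrays alone, so its inclusion required a difference of this direction.

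With 2 of 7 tested probe sets higher and 2 lower, the family has to be read against the array as a whole, where 28.2% of tested probe sets were called higher and 25.2% lower, 53.4% in all. The 4 calls among 7 therefore lay near the background. At 2-fold or more, 1 LOG-like probe set was higher and 2 were lower, and over the array these shares were 5.68% and 7.63%. The cultivars did not overlap in normalized values for 6 of the 7, against 76.3% of all tested probe sets. The median log2 difference of the 7 was −0.23, and that of all tested probe sets was 0.03. With 2 arrays against 2, the smallest p of an exact two-sided permutation test is 0.333, so every call rests on limma's pooling of variance over probe sets.

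**Figure D1:**
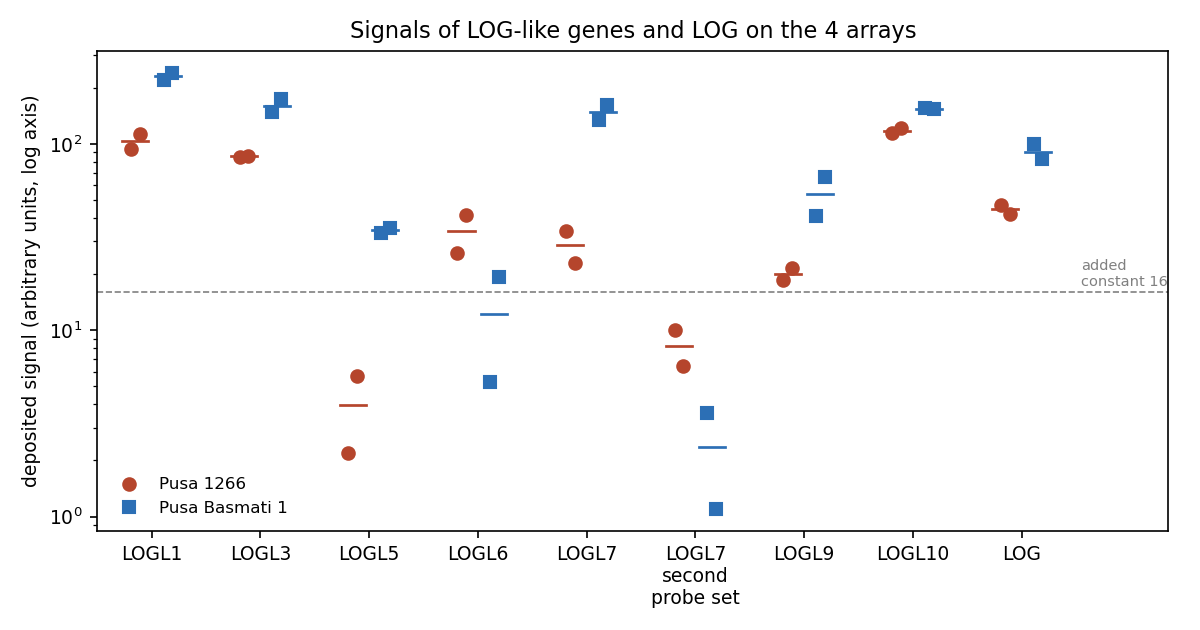
Deposited signal of each LOG-like probe set and of the brighter LOG probe set on each of the 4 arrays (y axis, log scale, arbitrary units), with circles for Pusa 1266, squares for Pusa Basmati 1, a short bar for the mean of each pair and a dashed line at the added constant of 16. LOGL7 (34.1 and 23.0 against 133.8 and 160.9) and LOGL5 show wide gaps with Pusa Basmati 1 on top, LOGL6 and the second LOGL7 probe set have Pusa 1266 on top, and signals of different probe sets are not to be compared with each other.

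LOGL7 (LOC4339472, chromosome 5) had the smallest adjusted p of the family. Its brighter probe set gave signals of 34.1 and 23.0 in Pusa 1266 and of 133.8 and 160.9 in Pusa Basmati 1, all above the median of their arrays. Both Pusa 1266 arrays lay well below both Pusa Basmati 1 arrays. After normalization the log2 level was 5.78 ± 0.40 (SD, n = 2) against 6.96 ± 0.06 (n = 2), a log2 difference of −1.18 ± 0.19 (SE, adjusted p = 0.00105 in limma). It also fell with the deposited scaling, at −1.88, and when each array was brought to the same trimmed mean, at −1.26. The size moved with the added constant, to −1.47 with 1 and −0.74 with 64. The Pusa 1266 arrays differed from each other more than the Pusa Basmati 1 arrays did: the log2 difference was −1.51 without the first of them and −0.91 without the second, and it passed in both cases.

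The second LOGL7 probe set pointed the other way, at very low signal. It gave 10.0 and 6.4 in Pusa 1266, against 3.6 and 1.1 in Pusa Basmati 1, and only the first of these exceeded the median of its array. It was thus left out of the test. In a fit of all probe sets without that filter its log2 difference was 0.57 ± 0.17 (SE, adjusted p = 0.0745 in limma) and did not pass. The fall of LOGL7 is therefore a statement about 1 of its 2 probe sets.

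LOGL5 (LOC4334848, chromosome 3) is a LOG-like gene for which edited forms have been reported to alter grain yield in rice. Its signals were 2.2 and 5.7 in Pusa 1266, against 33.4 and 35.5 in Pusa Basmati 1. The Pusa 1266 signals lay below the median of their arrays and below the added constant, and both Pusa Basmati 1 signals lay above. The log2 difference was −1.03 ± 0.18 (SE, adjusted p = 0.00173 in limma), and it was −2.29 with an added constant of 1 and −0.40 with 64, so the size of the fall is not fixed by these data. The ratio of the mean deposited signals was 8.72 in favour of Pusa Basmati 1, of which the unequal level of the arrays is a part.

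LOGL6 (LOC4336417, chromosome 4) gave signals of 26.0 and 41.7 in Pusa 1266 and of 5.3 and 19.2 in Pusa Basmati 1. It was the only member with a tested probe set whose deposited signals were higher in both Pusa 1266 arrays, although those arrays were the dimmer ones. The replicates lay apart within each cultivar, with normalized log2 levels of 5.94 ± 0.24 (SD, n = 2) and 4.65 ± 0.43 (n = 2). The log2 difference was 1.29 ± 0.23 (SE, adjusted p = 0.00219 in limma), 1.08 with median centring of each array and 0.85 under the deposited scaling, and it passed with every scaling. As for LOGL5 the size moved with the added constant, to 2.33 with 1 and 0.58 with 64.

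LOGL10 (LOC4348914, chromosome 10) had signals of 114.2 and 121.4 in Pusa 1266 and of 155.2 and 152.9 in Pusa Basmati 1. The replicates agreed closely, and the deposited signals were lower in Pusa 1266. After quantile normalization the order turned, and the log2 level was 7.48 ± 0.09 (SD, n = 2) against 7.01 ± 0.12 (n = 2) and a log2 difference of 0.47 ± 0.11 (SE, adjusted p = 0.00642 in limma). It was 0.38 with equal trimmed means, where it passed (0.0144), and it missed the threshold at −0.35 with the deposited scaling (0.0818) and at −0.11 with median centring (0.588). The median of all tested probe sets stood at −0.55 and −0.32 under these 2, and relative to it LOGL10 was 0.20 higher in both. The 2 values must be equal, since these scalings differ only by a constant for each array.

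LOGL1 (LOC4327684, chromosome 1) had signals of 93.9 and 112.2 in Pusa 1266 against 221.1 and 241.1 in Pusa Basmati 1. Its probe set is of the kind marked x, which can match transcripts of other genes. Its log2 difference of −0.23 ± 0.09 (SE, adjusted p = 0.0599 in limma) missed the threshold, and it passed with equal trimmed means (−0.33, adjusted p = 0.0139), with a filter at the 75th percentile (adjusted p = 0.0468), with median centring (−0.82) and with the deposited scaling (−1.06). With the deposited scaling it lay 0.51 below the median of all tested probe sets.

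LOGL9 (LOC4347769, chromosome 9) gave 18.5 and 21.6 against 40.9 and 66.7, so that the Pusa Basmati 1 replicates lay apart while those of Pusa 1266 were close. Its log2 difference was −0.36 ± 0.17 (SE, adjusted p = 0.109 in limma), and it ranged from −0.53 without the first Pusa Basmati 1 replicate to −0.16 without the second. LOGL3 (LOC4331344, chromosome 3) gave 85.4 and 85.6 against 147.5 and 173.3. After normalization its cultivars overlapped and the log2 difference was 0.00 ± 0.11 (SE, adjusted p = 0.991 in limma). With the deposited scaling the values of LOGL9 and LOGL3, at −0.93 and −0.79, passed, as did 59.8% of all tested probe sets in that direction, against 5.48% in the other. In the deposited signals both Pusa 1266 arrays lay below both Pusa Basmati 1 arrays for 6 of the 8 LOG-like probe sets and above them for 2, where the shares of all tested probe sets were 72.0% and 8.93%.

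**Figure D2:**
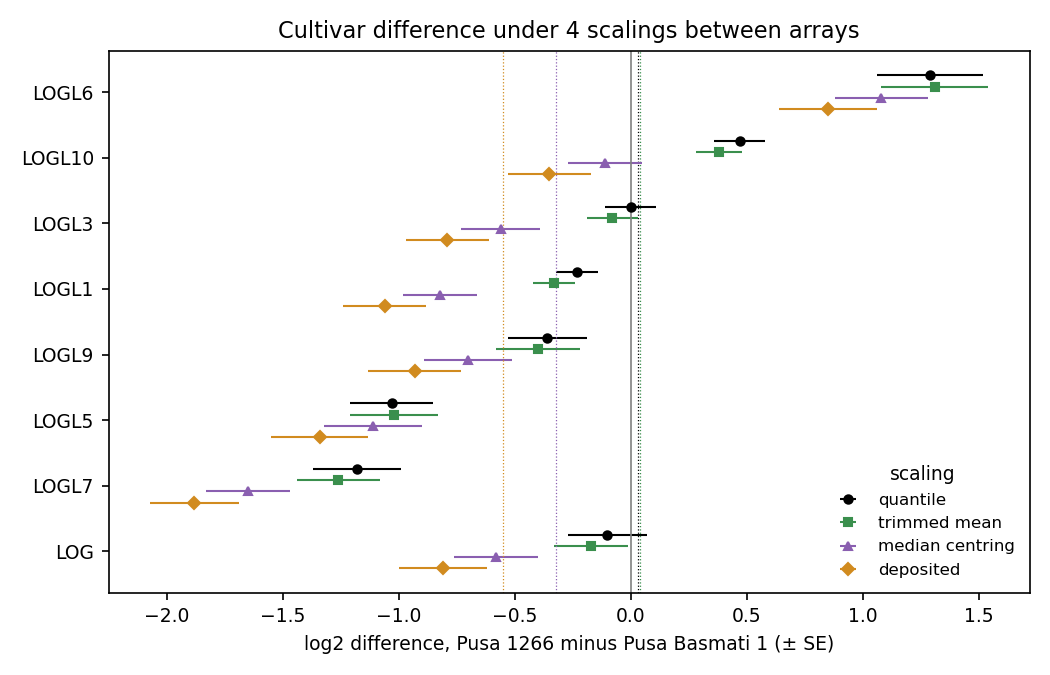
Log2 difference between the cultivars (x axis, Pusa 1266 minus Pusa Basmati 1, bars are ± SE from limma, n = 2 per cultivar) for each LOG-like gene and for LOG under 4 scalings between arrays, with a dotted line at the median of all tested probe sets under each. LOGL6 stays to the right of 0 and LOGL5 and LOGL7 to the left under all 4, while LOGL10 goes from 0.47 to −0.35.

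The order of the members by their difference hardly moved with the scaling. From the most positive to the most negative it was LOGL6, LOGL10, LOGL3, LOGL1, LOGL9, LOGL5 and LOGL7 after quantile normalization and with equal trimmed means. Under median centring or the deposited scaling LOGL1 and LOGL9 changed places, and the other 5 members kept theirs. Median centring shifts each array of the deposited scaling by a constant, so the order is the same in both by construction. These ranks describe how each probe set differed between cultivars and say nothing of which gene had the highest level.

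Ratios of one member to another within an array were also taken, for pairs that set LOGL6 or LOGL10 over members with a lower difference. Because 16 is added to each signal, such a ratio still moves in part with the level of the array, most at low signals: LOGL10 relative to LOGL5 was 1.0 higher in Pusa 1266 on the log2 scale with the deposited scaling and 1.5 higher after quantile normalization. The log2 ratio of LOGL6 to LOGL7, taken with the deposited signals plus 16, came to −0.25 and 0.57 in Pusa 1266 against −2.81 and −2.33 in Pusa Basmati 1. The cultivars did not overlap in this ratio, which was 2.73 higher on the log2 scale in Pusa 1266 with the deposited scaling and 2.47 higher after quantile normalization. For LOGL10 relative to LOGL1 the ratio came to 0.24 and 0.10 in Pusa 1266 against −0.47 and −0.61 in Pusa Basmati 1, a change of 0.71 with the deposited scaling and 0.70 after quantile normalization. For LOGL10 relative to LOGL3 these changes were 0.45 and 0.47. LOGL6 and LOGL10 thus stood higher relative to these partners in Pusa 1266 with both scalings. The choice of pairs fixed that direction, since each change is the difference between member values given above. The ratios are therefore no further support, and they do not show which partner of a pair moved.

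**Figure D3:**
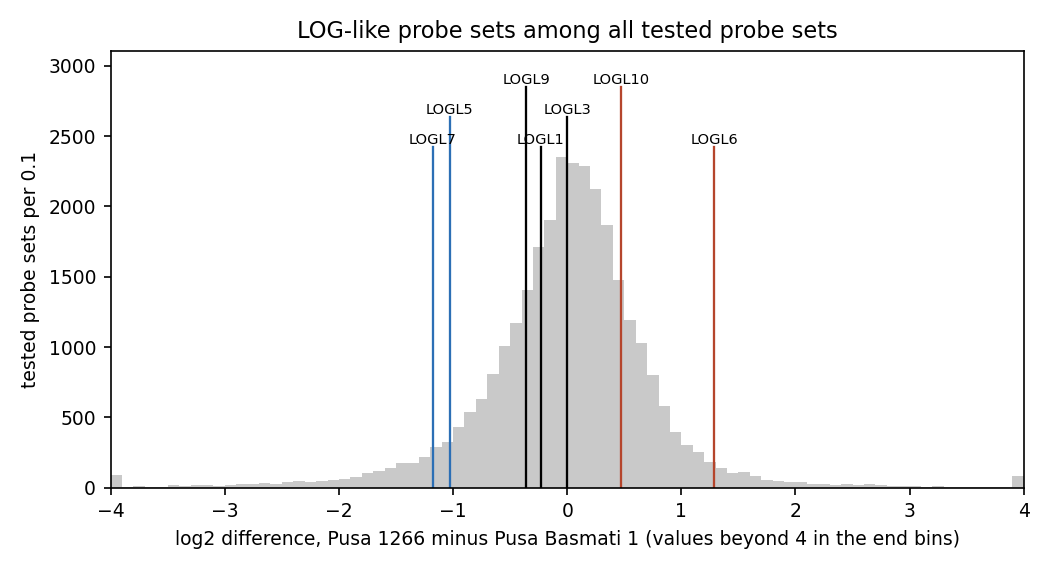
Number of tested probe sets per 0.1 of log2 difference between the cultivars (grey bars, 30029 probe sets, values beyond 4 placed in the end bins), with a line for each of the 7 tested LOG-like probe sets in red (called higher in Pusa 1266), blue (called lower) or black (did not pass). LOGL6, LOGL5 and LOGL7 lie on the flanks of the distribution, and the other 4 lie in its body.

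**Figure D4:**
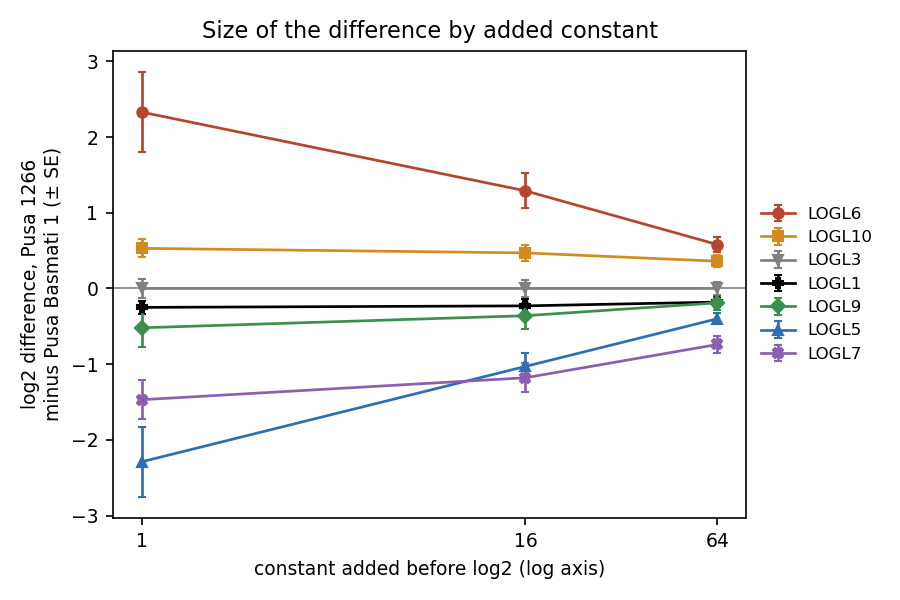
Log2 difference of each tested LOG-like probe set (y axis, ± SE, n = 2 per cultivar) against the constant added before logs were taken (x axis, log scale, 1, 16 and 64). The difference of LOGL6 shrinks from 2.33 to 0.58, that of LOGL5 from −2.29 to −0.40 and that of LOGL7 from −1.47 to −0.74 in size. LOGL10, LOGL3 and LOGL1 move less, and no sign changes.

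LOG itself (LOC4324445, chromosome 1) gave signals of 47.2 and 42.1 in Pusa 1266 and of 99.3 and 82.5 in Pusa Basmati 1 on its brighter probe set. After normalization the cultivars overlapped, and the log2 difference was −0.10 ± 0.17 (SE, adjusted p = 0.635 in limma). The other LOG probe set lay between 1.2 and 5.2 on the 4 arrays, below the median of each, and was not tested. LOG passed as lower in Pusa 1266 with the deposited scaling (−0.81, adjusted p = 4.11e-05 in limma) and with median centring (−0.58, adjusted p = 0.00248). In both, which differ only by a constant for each array, LOG was 0.26 below the median of all tested probe sets.

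Of the rest of the cytokinin pathway, 34 genes were matched by name, 23 had a probe set and 21 were tested, each at the probe set with the highest mean signal. In Pusa 1266 9 rose, 2 fell and 10 did not pass, against shares of 34.7% higher and 26.3% lower among all tested genes. The median log2 difference was 0.13 for these 21 genes and 0.07 for all tested genes. Without scaling of the deposited signals 16 of the 21 had values below 0, and 12 lay above the median of all tested genes, which was −0.62. No gene of the isopentenyltransferase or CYP735A families, which make cytokinin nucleotides and hydroxylate their side chain, was matched by name, so the step that supplies the LOG-like enzymes was not analysed here.

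Type A response regulators, whose transcripts are induced by cytokinin, had 4 of 6 tested genes higher and 1 lower in Pusa 1266, against 34.7% of all tested genes higher and 26.3% lower. One of the 4, RR5, exceeded the array median on both Pusa 1266 arrays and on neither Pusa Basmati 1 array, so its inclusion required a difference of this direction. RR1 gave signals of 241.9 and 215.3 against 89.5 and 91.4, and RR2 gave 94.4 and 110.2 against 58.5 and 62.4, so that the dimmer arrays carried the higher signals. RR1 rose by 1.97 ± 0.13, RR2 by 1.36 ± 0.11 and RR4 by 1.11 ± 0.14 on the log2 scale (SE), and with the deposited scaling they passed at 1.20, 0.63 and 0.53. RR5, with signals of 15.1 and 20.2 against 10.4 and 8.5, rose by 0.74 ± 0.17 and did not pass with the deposited scaling (0.40) or without the second Pusa Basmati 1 replicate (0.64, adjusted p = 0.0535 in limma). With no filter on low signals its adjusted p in limma was 0.0522. RR6 fell, with signals of 127.4 and 139.9 against 311.7 and 388.9 and a log2 difference of −0.45 ± 0.09. The family thus held members of both directions, as the LOG-like genes and the array as a whole did.

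The counts by role that follow stand against 34.7% of all tested genes higher and 26.3% lower. Of the 3 tested receptors HK3 and HK4 rose, by 0.66 ± 0.07 and 0.29 ± 0.08 on the log2 scale. HK5 at −0.15 did not pass, although its other tested probe set was called lower. With the deposited scaling the values of HK3 and HK4 turned, to −0.15 and −0.53, which were 0.47 and 0.09 above the median of all tested genes. HK3 did not pass there (adjusted p = 0.459 in limma), and HK4 passed as lower (adjusted p = 0.00484). HK4 did not pass in limma without the first Pusa 1266 replicate (0.25, adjusted p = 0.0668) or without the second Pusa Basmati 1 replicate (0.23, adjusted p = 0.0884), and with no trend in the variance its adjusted p was 0.0565. With median centring HK3 did not pass, at 0.09. Among the phosphate carriers AHP2 rose by 0.50 ± 0.05 (−0.13 with the deposited scaling, 0.49 above the median, and 0.10 with median centring, where it did not pass) and AHP1 fell by 0.66 ± 0.06, while PHP5 at −0.09 did not pass. The other tested probe set of AHP1 was not called. Of 5 type B regulators RR23 rose by 0.41 ± 0.07 and the other 4 did not pass. RR23 was at −0.39 when the deposited scaling was kept, and passed there as lower (adjusted p = 0.0359 in limma). RR21, at −0.21 (adjusted p = 0.0602 in limma), passed as lower with equal trimmed means (−0.25, adjusted p = 0.0292). It also passed as lower with a filter at the 75th percentile (0.0469) and with the replicate block (0.044). Of 4 tested oxidases CKX3 rose, with signals of 44.4 and 51.5 against 28.4 and 23.8 and a log2 difference of 1.17 ± 0.14, and CKX5, CKX11 and CKX4 did not pass, at 0.13, 0.11 and −0.31. CKX4 passed as lower with the deposited scaling (−0.52) and with no trend (adjusted p = 0.0367 in limma). Its signals, 4.7 and 4.3 in Pusa 1266 against 13.1 and 13.8 in Pusa Basmati 1, all lay below the added constant. CKX4 exceeded the array median on both Pusa Basmati 1 arrays and on neither Pusa 1266 array, so its inclusion required a difference of this direction. CKX2, the oxidase of the grain number locus Gn1a, had no probe set assigned and was not analysed here.

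**Figure D5:**
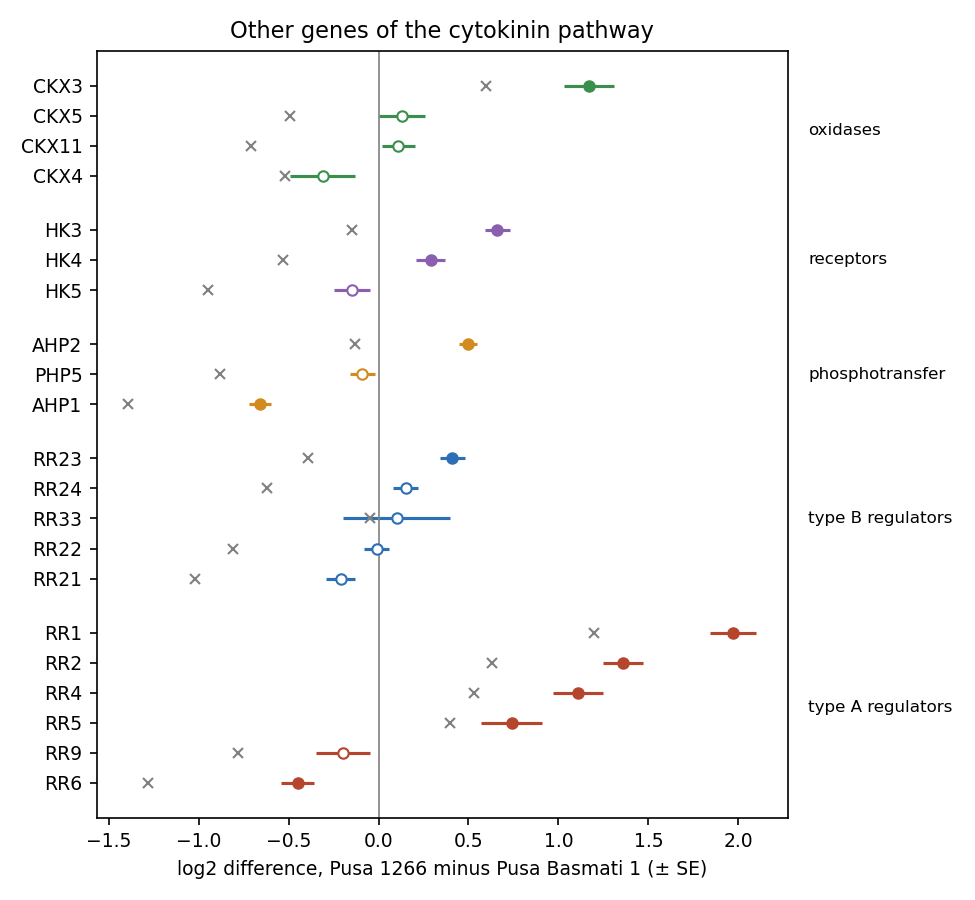
Log2 difference between the cultivars (x axis, Pusa 1266 minus Pusa Basmati 1, bars are ± SE, n = 2 per cultivar) for the 21 tested genes of the cytokinin pathway, grouped by role, filled where called after quantile normalization and open where not, with a grey cross for the value with the deposited scaling. RR1 (1.97), RR2 (1.36), CKX3 (1.17), RR4 (1.11) and RR5 (0.74) are the called genes that stay above 0 under both scalings, and AHP1 and RR6 are the called genes that stay below it.

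KNOX homeobox proteins maintain meristems and are known to raise cytokinin synthesis. Of 4 tested KNOX genes OSH71 rose by 1.02 ± 0.07 and OSH1 by 0.72 ± 0.06 on the log2 scale, and OSH6 at 0.21 and OSH43 at −0.05 did not pass (OSH6 passed in limma without the first Pusa 1266 replicate, at 0.30 with an adjusted p of 0.0272, and with a filter at the 75th percentile, with an adjusted p of 0.0471). OSH1 gave signals of 2211.4 and 2278.9 against 2031.8 and 2093.5. With the deposited scaling OSH71 stood at 0.21 and OSH1 at 0.12, and neither passed. These values were 0.83 and 0.74 above the median of all tested genes. With median centring OSH71 at 0.44 and OSH1 at 0.36 passed (adjusted p = 0.00818 and 0.0339 in limma). Over all tested genes 34.7% were called higher and 26.3% lower after quantile normalization.

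The genes most like LOGL6 were sought because it had the largest difference in size after quantile normalization, at 1.29 against −1.18 for LOGL7. The order of these 2 turned with the deposited scaling (0.85 against −1.88), with median centring (1.08 against −1.65) and with an added constant of 64 (0.58 against −0.74). The search ran among 2157 tested genes with a name, by the Euclidean distance between normalized log2 values centred on the mean of each probe set. The nearest was BG1 (LOC4331799, chromosome 3), a membrane protein of auxin response known for its effect on grain size, at a distance of 0.303 and with a log2 difference of 1.35. The kinase gene OsWNK2 followed at 0.318 with 1.11, and XOAT7, of a family of xylan acetyltransferases, at 0.334 with 1.20. All 3 shared with LOGL6 a higher second replicate in both cultivars in the deposited signals, such as 196.7 and 258.9 against 130.3 and 173.7 for BG1. The second array of each cultivar was also the brighter by trimmed mean, at 89.1 against 78.0 in Pusa 1266 and 155 against 138 in Pusa Basmati 1. By median signal the Pusa 1266 arrays kept that order, at 7.8 against 6.8, and the Pusa Basmati 1 arrays did not, at 11.3 against 11.5. In the deposited signals a higher second replicate is thus not particular to these genes. LOGL6 kept it after normalization, with log2 levels of 5.77 and 6.11 in Pusa 1266 and of 4.34 and 4.96 in Pusa Basmati 1. With 4 arrays the likeness to LOGL6 is a description only.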

How the data were processed

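The values that the authors deposited are signal intensities on a linear scale, 1 for each probe set on each array. The submitters' processing notes name GCOS 1.2. The labels' protocols give biotin-labelled cRNA from 8 ug of total RNA. How background and scaling were handled is not stated there. Arrays give no counts, and their number limits the precision.

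From the deposited intensity values, 123 control probe sets were removed, log2 of signal plus 16 was quantile normalized, and the cultivars were compared with lmFit and eBayes with a trend (limma 3.58.1, R 4.3.3). The script was tested on simulated data. Tables and plots used Python 3.11.15, pandas 2.3.3, numpy 2.4.6, scipy 1.17.1 and matplotlib 3.10.9. The array annotation gave 1 gene for 22436 probe sets, and all 17905 gene IDs were found in the reference table (assembly ASM3414082v1, Japonica rice), used for names, chromosomes and gene order. Genes outside the family were read at their brightest probe set.

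The members, gene lists and tests were chosen with earlier results of these data known. The text names all LOG-like genes and LOG, the cytokinin genes by group with at most 3 per group ranked by size, RR5, RR6 and CKX11 being exceptions chosen after their values were seen, meristem markers, KNOX genes, and the 3 genes most like the member with the largest difference after quantile normalization. The alternatives were 3 other scalings, 2 other constants, 2 other filters, no trend, the replicate number as a block, each array left out, the mean over a gene's probe sets, and, added after the data were seen, removal of the 64 reporter probe sets.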

Additional observations from a re-analysis of the deposited data

How the results depend on the processing

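The calls for LOGL5, LOGL6 and LOGL7 kept direction and side of the threshold under every alternative that tested their probe sets singly. The mean over a gene's probe sets was not read for the LOG-like genes. It would bear on LOGL7, whose 2 probe sets pointed opposite ways. LOGL5 and LOGL6 fell below a filter at the 75th percentile, and LOGL5 below the filter when either Pusa Basmati 1 array was left out. Of the LOG-like probe sets 2 were higher and 2 lower. The count higher was 1 with the deposited scaling, with centring on the median and with the filter at the 75th percentile. The count lower was 5 under both the deposited scaling and median centring, and it ran from 1 to 2 with an array left out. Their median of −0.23 was −0.93 with the deposited scaling and −0.70 after median centring, and it ran from −0.24 to −0.07 with an array left out. Over all tested probe sets 8472 were higher and 7574 lower, which became 1646 and 17956 with the deposited scaling and 2906 and 13660 with median centring. Pathway genes, 9 higher and 2 lower, became 4 and 13 with the deposited scaling and 5 and 9 with median centring, and 4 were lower with the mean over a gene's probe sets. Signs turned with the deposited scaling for LOGL3 (−0.79), LOGL10 (−0.35), CKX5 (−0.49), CKX11 (−0.71), HK3 (−0.15), HK4 (−0.53), AHP2 (−0.13), RR23 (−0.39), RR24 (−0.62) and OSH6 (−0.61). With median centring they turned for LOGL3 (−0.56), LOGL10 (−0.11), CKX5 (−0.26), CKX11 (−0.48), HK4 (−0.30), RR23 (−0.16), RR24 (−0.38) and OSH6 (−0.38). LOGL3 was also −0.08 with equal trimmed means and between −0.10 and 0.10 with an array left out, LOG between −0.27 and 0.07, and OSH43 between −0.10 and 0.00. The cause was not tested, beyond the level of the arrays that these scalings set differently.

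Replicate numbers did not pair the arrays, since replicate 1 minus replicate 2 in one cultivar and in the other correlated across tested probe sets with r = 0.0181. With the replicate block 8656 probe sets were higher and 7702 lower, and of the LOG-like ones 2 were higher and 2 lower.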

Other observations

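LOGL3 and LOGL5 lie on chromosome 3 and each of the other 5 on a chromosome of its own. The 10 tested genes nearest to each in gene order, 5 on either side, were also read. Around LOGL9, which did not pass at −0.36, 6 of the 10 neighbours were higher in Pusa 1266 and none lower, with a median log2 difference of 0.46. Around LOGL7, which fell, 3 were higher and 5 lower, with a median of −0.18 and values from −2.82 to 0.71. Around LOGL5, which also fell, 5 were higher and 1 lower (median 0.27), and around LOGL6, which rose, 2 were higher and 2 lower (median 0.10). Around LOGL1 and LOGL10 3 were higher and 3 lower (medians 0.03 and −0.10), and around LOGL3 4 were higher and 3 lower (median 0.03). Over the array 34.7% of tested genes were called higher and 26.3% lower, and these neighbourhoods were read after the members' values were known.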
